A study of Mus musculus with 9 samples.

Results

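The probes of 3 widely used reference genes, *Tbp*, *Nono* and *Rpl13a*, were followed across 9 microarrays of mouse cardiac RNA. They were found by the RefSeq accession that the scanner files give for each probe (NM_013684.3 for *Tbp*, NM_023144.2 for *Nono*, NM_009438.4 for *Rpl13a*) and by their printing as 20 spots on every array. They are 3 of the 15 reference-gene probes so printed, and 3 of 59709 probes in all. The arrays measured long non-coding and messenger RNA in 3 groups of 3 arrays each. The WT group came from B6SV129F1 wild-type mice. TAC arrays carried that strain label too, with the description TAC surgery, an abbreviation left unexplained there, and no sham operation is mentioned. For the CnA arrays the strain is given as Myh6-CnA. *Myh6* encodes a cardiac myosin heavy chain, and its promoter is a usual driver of transgenes in cardiomyocytes, while CnA is not spelled out. TAC and CnA are together called the models here. Age, sex and the number of animals behind an array are not given in the sources used here, so p-values measure the spread between these arrays.

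The products of these genes act at successive steps of gene expression. TBP binds the TATA element of promoters, is a subunit of the general transcription factor TFIID, and also serves RNA polymerases I and III. NONO is an RNA- and DNA-binding protein of the DBHS family, which with its partners SFPQ and PSPC1 takes part in transcription and splicing and builds paraspeckles, nuclear bodies assembled on the long non-coding RNA Neat1. RPL13A is a protein of the large ribosomal subunit, and introns of its gene encode small nucleolar RNAs. Because such genes are expressed in nearly all cells, they are often taken as internal standards when expression is compared between tissues.

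The promoters are shown here because *Tbp* and *Nono* moved together in the data and *Rpl13a* did not, and because TBP itself reads the TATA element. The windows are the bases before the annotated gene start, up to 250, from RefSeq on build GRCm38.p6. All 3 genes matched by symbol. The array files name build mm9, and no coordinate was converted. *Tbp* is at chr17:15499638-15499887 on the + strand, *Nono* at chrX:101429401-101429559 on the + strand, and *Rpl13a* at chr7:45128746-45128995 on the - strand. Capitals mark matches to TATAAA (the TATA box), CCAAT (the CCAAT box), GGGCGG (the GC box) and GGAAGT (the core bound by ETS factors) on either strand.
Tbp: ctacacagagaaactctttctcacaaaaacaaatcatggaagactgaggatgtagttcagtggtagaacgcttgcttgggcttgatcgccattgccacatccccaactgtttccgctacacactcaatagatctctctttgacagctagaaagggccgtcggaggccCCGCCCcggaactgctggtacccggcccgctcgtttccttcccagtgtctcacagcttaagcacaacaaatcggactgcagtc
Nono: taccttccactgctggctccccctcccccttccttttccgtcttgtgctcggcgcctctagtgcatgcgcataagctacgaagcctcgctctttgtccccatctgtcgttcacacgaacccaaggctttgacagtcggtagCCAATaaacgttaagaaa
Rpl13a: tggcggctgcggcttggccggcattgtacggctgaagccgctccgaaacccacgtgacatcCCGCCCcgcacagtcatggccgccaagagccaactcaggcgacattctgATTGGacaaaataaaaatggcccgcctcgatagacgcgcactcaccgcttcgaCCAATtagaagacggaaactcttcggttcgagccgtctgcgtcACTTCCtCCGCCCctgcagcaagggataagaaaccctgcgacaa
No window held TATAAA, which 12.4% of 32851 mouse promoters hold in the same 250 bases. In the last 159 of these bases, the length of the *Nono* window, 7.95% hold it. The *Nono* window is the first 159 bases of its promoter sequence, so it matches the shares in length but not in place. *Tbp* held 1 match to GGGCGG, a motif found in 32.7% of promoters. *Nono* held 1 CCAAT, with its first base at position -18 from the gene start, and 25.4% of promoters hold CCAAT in a window of that length. *Rpl13a* held 2 matches to CCAAT, 2 to GGGCGG and 1 to GGAAGT, against shares of 33.8%, 32.7% and 19.7% of promoters. No matches overlapped. These matches describe letters in the windows only.

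WT arrays were the brightest. As deposited, the processed signal had a 75th percentile of 442 ± 13.7 intensity units (SD, n = 3) on WT arrays, against 269 ± 9.11 on TAC and 289.7 ± 9.18 on CnA arrays. Unless stated otherwise, values are therefore log2 of the processed signal, averaged over the spots of a probe, minus the 75th percentile of the same array, called the scaled log2 signal. Over the 44224 tested probes, scaling left median log2 fold changes of 0.32 for TAC relative to WT, 0.22 for CnA relative to WT and -0.04 for CnA relative to TAC. A probe was called changed at a limma p under 0.05 after Benjamini-Hochberg adjustment over all tested probes. The number of arrays limits the precision. Cross-hybridization, such as with processed pseudogenes of *Rpl13a*, was not tested.

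*Tbp* fell in both models, to the lowest level in TAC. Its scaled log2 signal was -0.17, 0.37 and 0.35 on WT replicates 1, 2 and 3. The TAC arrays read -1.45, -1.39 and -1.37. The CnA arrays read -0.60, -0.67 and -0.83. The 3 groups did not overlap, and WT replicate 1 lay below the other WT arrays, towards the models. In TAC, *Tbp* was 3.00-fold lower than in WT (log2 fold change -1.59, standard error 0.15, limma adjusted p = 5.57e-05). In CnA it was 1.84-fold lower (log2 fold change -0.88, standard error 0.15, limma adjusted p = 0.00159). Relative to the median of all probes these changes were -1.90 and -1.10. Only 8.67% of the tested probes had a lower log2 fold change than *Tbp* in TAC, and 13.7% did in CnA. Without WT replicate 1 the log2 fold changes were -1.76 and -1.06. The call in CnA was lost when slide row and slide were both fitted as blocks (limma adjusted p = 0.0975).

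*Tbp* also differed between the models, being 1.63-fold higher in CnA than in TAC (log2 fold change 0.70, standard error 0.15, limma adjusted p = 0.0168). It was higher in all 3 CnA arrays than in any TAC array. This call was close to the threshold: leaving out TAC replicate 1, 2 or 3 or CnA replicate 1 or 2 gave log2 fold changes of 0.65 to 0.72 and limma adjusted p-values of 0.0522 to 0.0646. The call was also lost with slide row and slide as blocks, with the median over spots and with scaling to the 12 other reference-gene probes (limma adjusted p = 0.0967, 0.0556 and 0.0537). The difference was positive under all 26 alternative settings, at 0.44 to 0.99. Some of these, such as leaving out a WT array, cannot change its size or direction.

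*Nono* fell alongside *Tbp*, by a smaller amount in TAC. Its scaled log2 signal was 2.66, 3.02 and 3.03 on WT replicates 1, 2 and 3. The TAC arrays read 1.90, 1.86 and 1.84. The CnA arrays read 2.03, 2.10 and 2.16. All WT arrays were above all TAC and CnA arrays, and WT replicate 1 was again the WT array nearest to the models. In TAC, *Nono* was 2.05-fold lower than in WT (log2 fold change -1.04, standard error 0.12, limma adjusted p = 0.000139). In CnA it was 1.75-fold lower (log2 fold change -0.81, standard error 0.12, limma adjusted p = 0.000647). Relative to the median of all probes the log2 fold changes were -1.35 and -1.03. The TAC and CnA arrays did not overlap, yet the difference of 0.23 between them (95% confidence interval -0.04 to 0.50) was not called (adjusted p = 0.229 by limma). Without WT replicate 1 the log2 fold changes against WT were -1.16 in TAC and -0.93 in CnA. With slide row and slide as blocks the call in CnA was lost (limma adjusted p = 0.0736).

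*Rpl13a* was higher in both models than in WT after scaling, the opposite direction to *Tbp* and *Nono*. Its scaled log2 signal was 3.66, 3.24 and 3.26 on WT replicates 1, 2 and 3. The TAC arrays read 3.85, 3.82 and 3.94. The CnA arrays read 4.04, 3.97 and 4.02. Every array of the models was above every WT array, with WT replicate 1 once more nearest to them. TAC exceeded WT 1.40-fold (log2 fold change 0.49, standard error 0.13, limma adjusted p = 0.0111), and CnA exceeded WT 1.54-fold (log2 fold change 0.62, standard error 0.13, limma adjusted p = 0.00364). Relative to the median of all probes these changes were 0.17 and 0.40. Without WT replicate 1 the log2 fold changes were 0.62 and 0.76. Both calls were lost with slide row and slide as blocks (limma adjusted p = 0.114 in TAC and 0.171 in CnA). In TAC, 61.7% of all tested probes had a lower log2 fold change than *Rpl13a*. Between CnA and TAC the difference was 0.14, with a 95% confidence interval of -0.16 to 0.43, and was not called (adjusted p = 0.517 by limma).

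The direction for *Rpl13a* depended on scaling. Before scaling its processed signal was 5401, 4186 and 4342 intensity units on WT replicates 1, 2 and 3, 3796, 3948 and 4073 on the TAC arrays, and 4650.1, 4465 and 4860 on the CnA arrays. On this scale all TAC arrays were below all WT arrays, and CnA overlapped WT. Without scaling, *Rpl13a* gave -0.23 log2 units for TAC relative to WT (adjusted p = 0.136 by limma) and 0.013 for CnA relative to WT (adjusted p = 0.932 by limma). For *Tbp* the unscaled signal was 379, 574 and 578 units in WT, 96.2, 106 and 102 in TAC, and 186, 179 and 169 in CnA. *Nono* read 2709, 3605 and 3712 units in WT, 980, 1015 and 952 in TAC, and 1157, 1227 and 1344 in CnA. For both, the unscaled differences from WT were larger than the scaled ones, at -2.30 and -1.75 in TAC and -1.49 and -1.42 in CnA on the log2 scale.

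**Figure D1:**
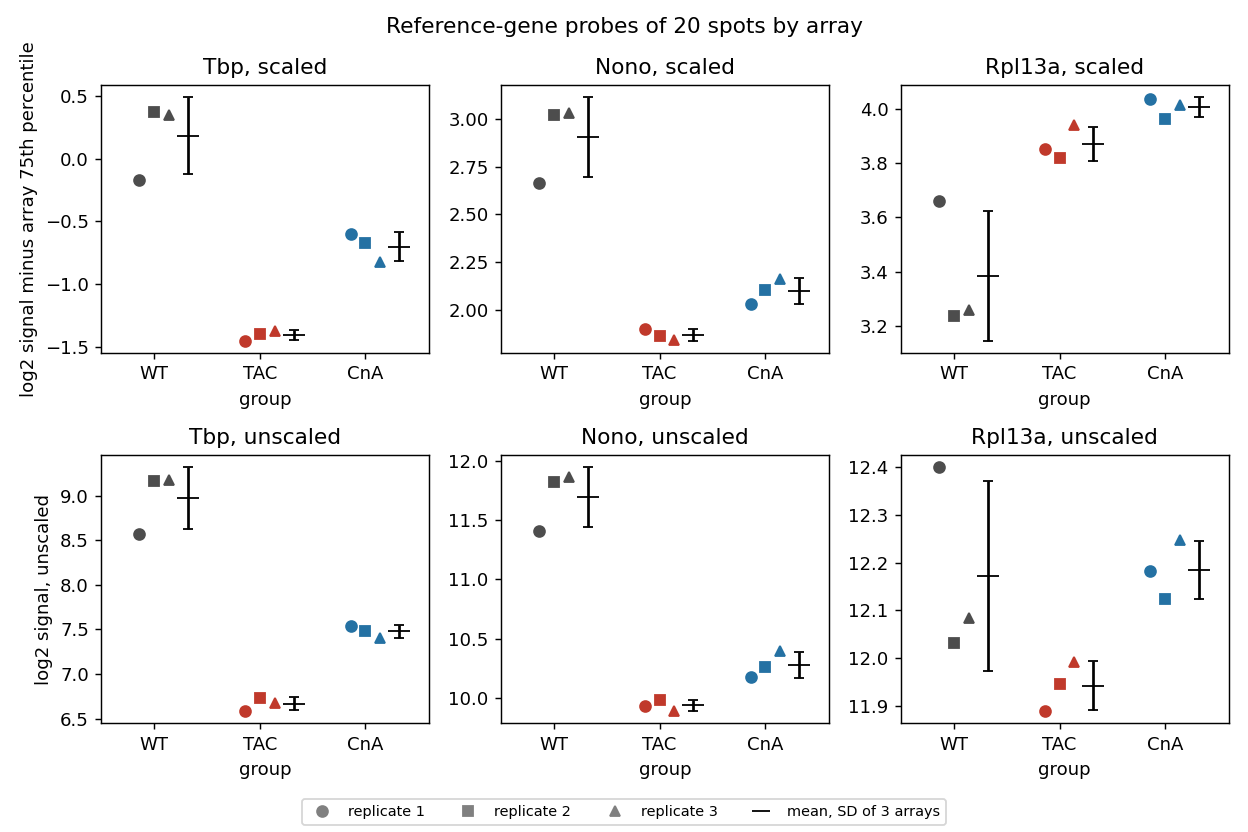
Log2 signal of the Tbp, Nono and Rpl13a probes on the 9 arrays, scaled to the 75th percentile of the array (top) and unscaled (bottom), by group. Symbols are replicates and bars the mean and SD of 3 arrays. Tbp and Nono lie lower in TAC and CnA than in WT on both scales, whereas Rpl13a lies above WT in TAC after scaling and below it before.

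The number of genes called was set beside the share of all tested probes called. Between TAC and WT, 2 of the 3 genes were called lower in TAC and 1 higher, where 20.5% of all tested probes were called lower, 39.6% higher and 60.1% in either direction. In CnA against WT, the same split was found against shares of 20.5%, 36.2% and 56.8%. In CnA against TAC, 1 of the 3, *Tbp*, was called, against 17.4% of all tested probes in either direction, 10.5% called higher and 6.89% called lower in CnA. Both models were compared with the same 3 WT arrays. The 12 other reference-gene probes with 20 spots, which include *Actb*, *Gapdh* and *Hprt*, gave 4 called higher and 2 called lower in each model against WT. Their median log2 fold changes were -0.06 in TAC and -0.01 in CnA. Single probes among them ranged widely, from -2.89 to 1.76 in TAC and from -1.44 to 1.51 in CnA.

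Differences between probes on the same array were examined next, because a scaling factor per array cancels in them. Only their change between groups was read, not the level of one probe against another. *Rpl13a* minus *Tbp* was 3.83, 2.87 and 2.91 log2 units on WT replicates 1, 2 and 3. It was 5.30, 5.21 and 5.31 in TAC and 4.64, 4.64 and 4.84 in CnA, with no overlap between any groups. The *Rpl13a* to *Tbp* ratio was thus 4.21-fold higher in TAC and 2.84-fold higher in CnA than in WT. An exact permutation test over the 3 groups gave p = 0.00357, the smallest value that 9 arrays in 3 groups of 3 allow. After Benjamini-Hochberg adjustment over the 3 probe pairs it was 0.0107. For 2 groups of 3 the smallest two-sided p of an exact permutation test is 0.1, which each pair of groups reached. Without WT replicate 1 the difference between TAC and WT was 2.39 log2 units, against 2.07 with it. The size of this difference also depended on background correction and spot position. It was 1.51 with normexp background correction, 1.66 on spots right of column 68 and 2.58 on spots of columns 1 to 68. In each of these settings the exact permutation test over the 3 groups gave adjusted p = 0.0107.

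*Rpl13a* minus *Nono* was 1.00, 0.22 and 0.23 in WT, 1.95, 1.96 and 2.10 in TAC, and 2.01, 1.86 and 1.85 in CnA. Here WT was below both models and the models overlapped. The ratio was 2.88-fold higher in TAC and 2.69-fold higher in CnA than in WT (exact permutation test over the 3 groups, adjusted p = 0.0161). *Nono* minus *Tbp* was 2.84, 2.65 and 2.68 in WT, 3.35, 3.25 and 3.22 in TAC, and 2.63, 2.78 and 2.99 in CnA. TAC stood above both other groups, by 0.55 against WT, while CnA overlapped WT with a difference of 0.08 (exact permutation test over the 3 groups, adjusted p = 0.025). The difference of 0.55 shrank to 0.060 with normexp background correction and to 0.24 on spots right of column 68. In these settings the exact permutation test over the 3 groups gave adjusted p = 0.121 and 0.0786. The normexp setting added an offset of 50 units to each signal, where the mean unscaled signal in TAC was 102 units for *Tbp* and 982 for *Nono*. The part of the offset in the smaller difference was not tested. Without TAC replicate 1 the difference was 0.51 (exact permutation test over the 3 groups, adjusted p = 0.0607). These p-values are for the 3 groups together, not for TAC against WT alone.

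**Figure D2:**
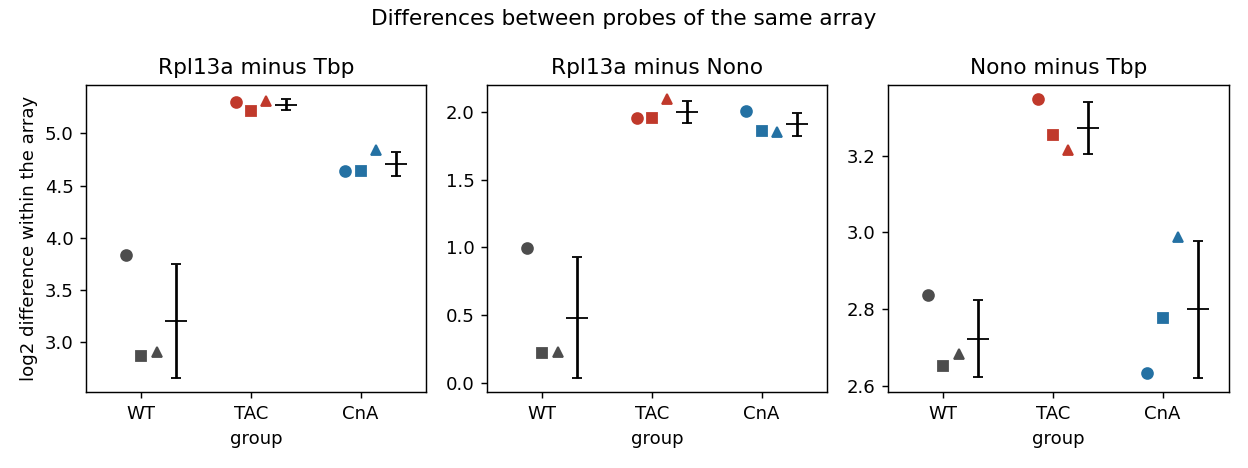
Log2 difference between 2 probes on the same array, by group, for the 3 pairs of Tbp, Nono and Rpl13a. Symbols are arrays and bars the mean and SD of 3 arrays. Rpl13a minus Tbp separates all 3 groups, Rpl13a minus Nono separates WT from both models, and Nono minus Tbp sets TAC apart.

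The 20 spots of a probe also allowed a look at the spread within an array. This spread includes the differences by spot position given in the next paragraph, so it is not a measure of precision alone. The SD between spots of *Rpl13a* was 0.05 to 0.12 log2 units on the 9 arrays. For *Nono* it was 0.07 to 0.21 in WT, 0.26 to 0.27 in TAC and 0.24 to 0.27 in CnA. For *Tbp* it was 0.18 to 0.27 in WT, 0.55 to 0.70 in TAC and 0.36 to 0.43 in CnA. On every array all spots of these probes were flagged by the scanner software as well above background, and none as saturated. The raw *Tbp* signal was 16.04 to 24.4 times the local background in WT, 6.42 to 6.96 times in TAC and 9.16 to 10.6 times in CnA.

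The *Tbp* and *Nono* spots differed by position. Spots in columns 1 to 68 of the array, on the left, were on average dimmer than those in the columns above 68 on each of the 9 arrays. The mean difference for *Tbp* was only -0.06 log2 units on WT replicate 3. Unflagged left and right spots overlapped for *Tbp* on WT replicate 3 and CnA replicate 2, and for *Nono* on WT replicates 2 and 3. On all other arrays, which include every TAC array, each left spot of the probe was dimmer than each right spot. For *Tbp* the left spots minus the right spots came to -0.29 ± 0.21 log2 units (SD, n = 3) for WT, -1.18 ± 0.13 for TAC and -0.67 ± 0.12 for CnA. For *Nono* the values were -0.23 ± 0.16, -0.52 ± 0.01 and -0.48 ± 0.05. For *Rpl13a* they were -0.08 ± 0.02, -0.05 ± 0.01 and -0.07 ± 0.04. Exact permutation tests over the 3 groups gave p-values adjusted over the 3 probes of 0.0107 for *Tbp*, 0.0214 for *Nono* and 0.489 for *Rpl13a*. The split between left and right was chosen after the spots were seen.

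Left and right spots gave fold changes of different size and the same direction. From left spots alone *Tbp* changed by -2.08 in TAC relative to WT, and from right spots alone by -1.19 (limma, adjusted p = 4.29e-05 and 0.000138). CnA relative to WT gave -1.09 and -0.71, and CnA relative to TAC 0.99 and 0.47, all of them called. *Nono* in TAC against WT gave -1.24 on the left and -0.94 on the right. *Rpl13a* gave 0.50 and 0.48. Normexp background correction of the raw signals, with an offset of 50 units, gave -1.13 for *Tbp* in TAC against WT, and -1.07 for *Nono*. Averaged over the 9 arrays, left spots were also dimmer by more than 0.3 log2 units for 3 of the 12 other reference-gene probes. These were *Gk*, *G6pd2* and *Ldhal6b*, picked out after their values were seen. In WT, TAC and CnA, left minus right was -0.77, -0.88 and -0.64 for *Gk*. It was -0.43, -0.53 and -0.73 for *G6pd2*, and -0.31, -0.40 and -0.45 for *Ldhal6b*. Their mean log2 level before scaling was at most 7.92, and at least 10.66 for the other 9. On the same measure *Tbp* was at 7.67 and *Nono* at 10.55, with left minus right of -0.71 and -0.41 over the 9 arrays. The dimmest of the other 9, *Gusb* at 10.66, had -0.08. Left minus right also differed between TAC and WT outside the reference-gene probes. Among single-spot probes detected on all arrays, the median of 11836 on the left minus that of 20933 on the right was 0.07, 0.14 and 0.36 on WT replicates 1, 2 and 3. It was -0.0026, -0.03 and -0.04 in TAC and 0.04, 0.07 and -0.13 in CnA. TAC lay below all WT arrays, the direction also seen for *Nono* and *Tbp*, while CnA overlapped WT. Different probes lie on the left and on the right. The share of the *Nono* and *Tbp* position difference that is common to other probes was not tested. The part of dim signal in this spread was not tested.

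**Figure D3:**
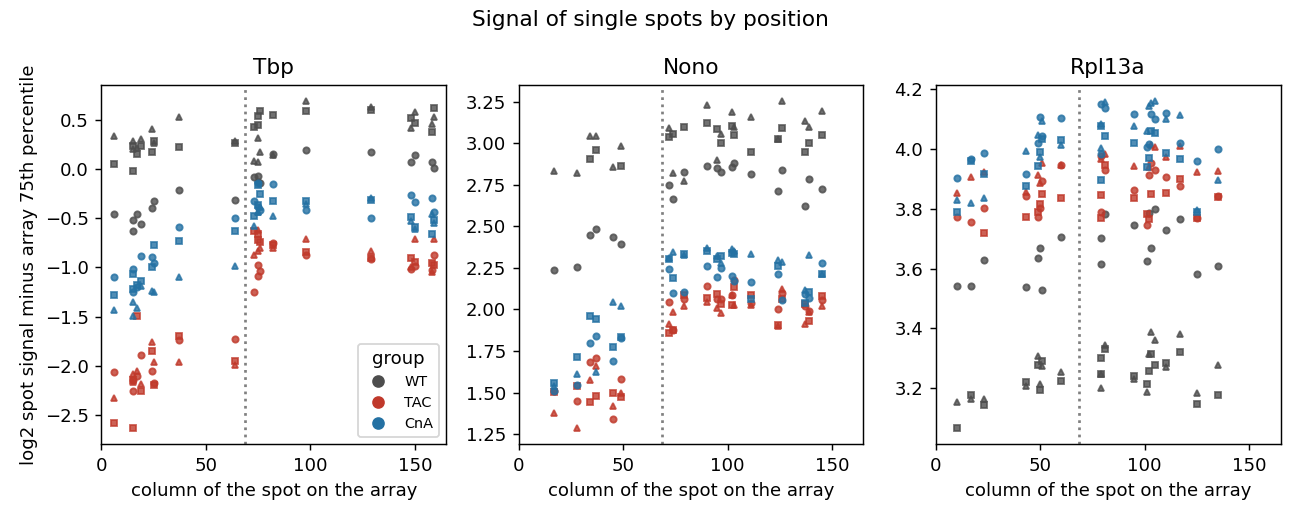
Scaled log2 signal of each unflagged spot of the Tbp, Nono and Rpl13a probes against the column of the spot on the array, coloured by group, with a symbol for each replicate. Tbp spots left of the dotted line lie on average below those on the right, by -1.18 log2 units in TAC and by -0.06 on WT replicate 3, where they overlap, while Rpl13a spots differ by at most 0.08 in the group means.

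Position on the slides was tied to the groups in part. The file headers hold a field of paired digits for each array, read here as row and column on a slide, and a scan time. The headers do not state this meaning. On this reading WT replicates 1 to 3 and TAC replicate 1 lay in row 1, and TAC replicates 2 and 3 with CnA replicates 1 and 2 in row 2. CnA replicate 3 had the same position as WT replicate 1 and another scan time, and was taken as lying in row 1 of another slide. Within row 1, TAC replicate 1 differed from the WT mean by -1.63 for *Tbp*, -1.01 for *Nono* and 0.47 for *Rpl13a*. Within row 2, CnA minus TAC was 0.75 for *Tbp*, 0.22 for *Nono* and 0.12 for *Rpl13a*, from 2 arrays a group. CnA and WT never shared a row of a slide. With row as a block every call was kept. With row and slide together as a block, a setting added after seeing the data, fold changes kept their direction but 5 of the 7 calls were lost (*Tbp*, *Nono* and *Rpl13a* in CnA against WT, limma adjusted p = 0.0975, 0.0736 and 0.171; *Rpl13a* in TAC against WT, 0.114; *Tbp* in CnA against TAC, 0.0967).

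**Figure D4:**
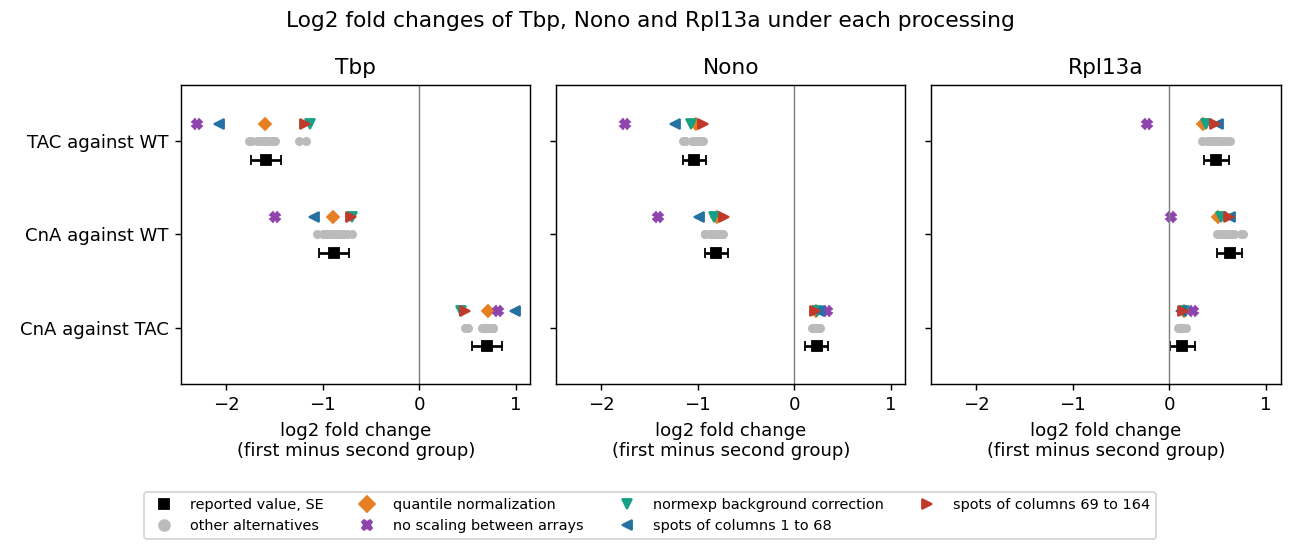
Log2 fold changes of Tbp, Nono and Rpl13a in the 3 comparisons. Black squares are the reported values with the standard error of the limma fit, grey dots alternative settings, and coloured symbols the settings named in the legend. Tbp and Nono stay below 0 in both models against WT under all settings, and Rpl13a in TAC crosses 0 without scaling (-0.23).

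As a measure of steadiness, the SD of the scaled log2 signal over all 9 arrays was 0.71 for *Tbp*, 0.48 for *Nono* and 0.31 for *Rpl13a*. In order of increasing SD they ranked 13, 11 and 6 among the 15 reference-gene probes. Of the 36903 probes well above background on all arrays, 83.5% had a smaller SD than *Tbp*, 62.6% than *Nono* and 34.4% than *Rpl13a*. Within groups the pooled SD was 0.19, 0.13 and 0.14, each smaller than over all arrays.

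Taking one of these genes as the standard subtracts its own fold change from that of every probe. The shift of the median is therefore fixed by the fold changes given above. The shares of calls also depend on how the standard varies between arrays, and are listed only to show their size. Between TAC and WT, 65.8% of called probes were higher in TAC by the 75th percentile, 93.8% by *Tbp*, 89.9% by *Nono* and 30.5% by *Rpl13a*. Between CnA and WT, the share of calls that were higher in CnA was 63.8% by the 75th percentile, 91.2% by *Tbp*, 89.8% by *Nono* and 21.0% by *Rpl13a*. The mean of the 3 genes gave 86.1% in TAC and 79.9% in CnA. Between CnA and TAC the number of calls was 7701 by the 75th percentile, of which 60.4% were higher in CnA. It was 27648 by *Tbp*, with 4.94% higher, 6249 by *Nono*, with 38.9% higher, and 7774 by *Rpl13a*, with 35.8% higher. Without any scaling the shares higher in the first group were 16.9% for TAC relative to WT, 20.3% for CnA relative to WT and 75.7% for CnA relative to TAC.

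**Figure D5:**
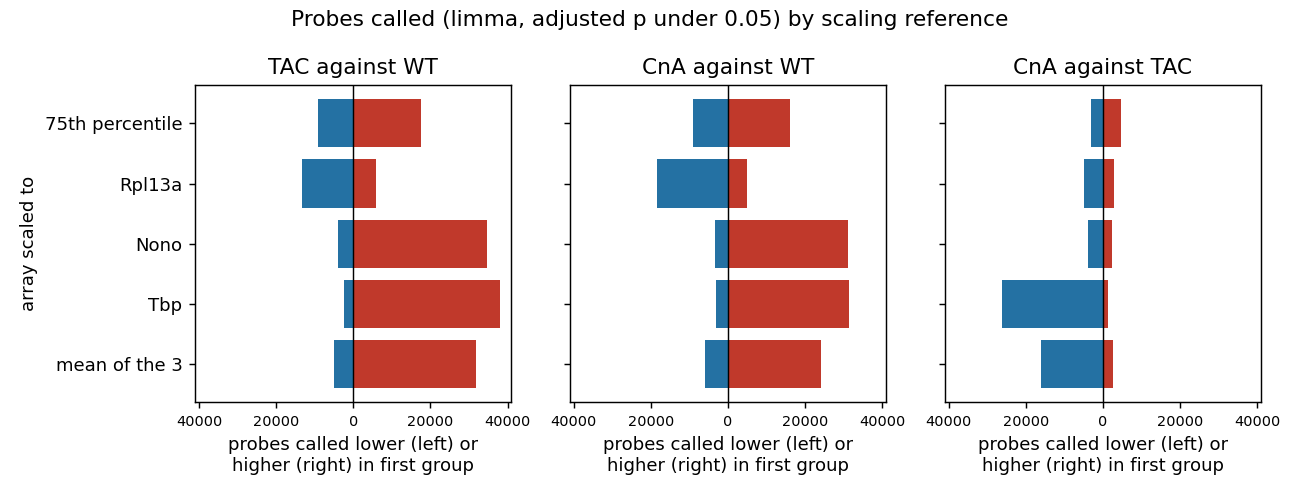
Number of probes called lower (bars to the left) and higher (bars to the right) in the first group of each comparison, when arrays were scaled to the 75th percentile, to Rpl13a, Nono or Tbp, or to the mean of the 3. In TAC against WT 93.8% of calls are higher by Tbp and 30.5% by Rpl13a.

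Likeness of profiles was measured as the root mean square difference over the 9 arrays, after each profile was centred on its own mean. *Tbp* and *Nono* were 0.26 log2 units apart, *Nono* and *Rpl13a* 0.73, and *Tbp* and *Rpl13a* 0.91. Among 101 other tested probes with a gene symbol, the nearest to *Tbp* were *Vamp7*, *Zf12* and *Zfp131* at 0.34, 0.39 and 0.47. Nearest to *Nono* were *Zf12*, *Gm20738* and *Vamp7* at 0.16, 0.24 and 0.28. *Rpl13a* lay nearest to *Ppia*, which encodes cyclophilin A, at 0.07, then to *Vmn1r241* and *Fam177a2* at 0.12 and 0.13. The log2 fold changes of *Ppia* were 0.55 in TAC and 0.76 in CnA against WT, beside 0.49 and 0.62 for *Rpl13a*. Most probes carry no symbol, and 1754 tested probes were closer to *Tbp* than *Vamp7*, 335 closer to *Nono* than *Zf12*, and 33 closer to *Rpl13a* than *Ppia*.

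No other listed gene of these pathways could be read from the named probes. The lists held 26 symbols for general transcription factors, 9 for paraspeckle proteins and RNAs, and 23 for cardiac, other cell type and hypertrophy markers. A further 104 were symbols starting with Rpl or Rps, small nucleolar RNAs and their hosts. The Rpl and Rps symbols were taken by a name pattern, which can miss ribosomal proteins and take in other genes. Of all these symbols, none beside *Tbp*, *Nono* and *Rpl13a* was paired with a probe. The cardiac origin of the RNA and the presence of other cell types were therefore not checked. In bulk tissue, fewer cells of a type and less RNA per cell cannot be told apart.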

How the data were processed

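Total RNA of mouse cardiac tissue was purified with a Direct-zol kit, depleted of ribosomal RNA and labelled by random priming, per the labels' protocols. The labels list a second dye (Cy5), but the scanner files hold a single channel, read with Agilent Feature Extraction 11.0.1.1 per the file headers. The deposited scanner files give a processed signal, an intensity after background subtraction and detrending by the authors' software, and the raw median intensity of spot and background. The authors also deposited 2 tables of log2 values, with no statement of how they were made. These tables list none of the 3 probes, and lay within a median of 0.00292 of log2 processed signals after quantile normalization, on every array, so that quantile normalization served as an alternative.

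Control spots and spots flagged as outliers were left out, log2 signals were averaged over a probe's spots, and each array was scaled to its 75th percentile. A further 130 probes were left out for outlier flags. Probes detected (well above background) throughout at least 1 group numbered 44224 and were fitted with limma 3.58.1 in R 4.3.3 (lmFit, eBayes) on all 9 arrays, with 1 coefficient per group and p-values adjusted by Benjamini and Hochberg over all of them. The fit and the exact permutation tests were tested on simulated data. Names came from RefSeq accessions (116 of 123 matched). Alternatives covered scaling, background correction, spots, detection filter, blocks, array weights and leaving out each array. The genes and lists were chosen with earlier results of these data known. Genes beside the 3 were named by rule, as the 3 named probes nearest to each in profile. Others named (reference genes as examples or for spot position) were picked after their values were seen.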

Additional observations from a re-analysis of the deposited data

Results flagged for a closer look

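The change of *Tbp* against WT differed between the models, by 0.70 log2 units in CnA minus TAC (limma, adjusted p = 0.0168). The difference between left and right spots of *Tbp* varied among the groups, by -0.89 log2 units in TAC minus WT (exact permutation test over the 3 groups, adjusted p = 0.0107). For *Nono* the same difference was -0.29 (exact permutation test over the 3 groups, adjusted p = 0.0214). Both p-values are for the 3 groups together, not for TAC against WT alone. The split was chosen after the spots were seen. Medians of single-spot probes detected on all arrays, left minus right, were also lower in TAC (-0.04 to -0.0026) than in WT (0.07 to 0.36). The share common to other probes was not tested.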

How the results depend on the processing

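For the 9 comparisons of single genes 234 values were recomputed. Of these, 220 kept direction and side of the threshold, 13 fell short of the threshold and 1 reversed. Some settings, such as leaving out an array of the group not compared, cannot change a fold change. *Tbp* and *Nono* against WT kept their direction under all alternatives. *Rpl13a* reversed in TAC against WT without scaling, at -0.23, and came to 0.013 between CnA and WT. With row and slide as a block, calls were lost for *Rpl13a* in TAC (0.47), for *Tbp*, *Nono* and *Rpl13a* in CnA (-0.88, -0.79 and 0.59) and for *Tbp* between CnA and TAC (0.75). The last was also lost with the median over spots (0.50) and with scaling to the 12 other reference-gene probes (0.66), and ranged over 0.65 to 0.77 when single arrays were left out. *Nono* minus *Tbp* in TAC against WT was 0.060 with normexp, 0.30 with the median over spots, 0.24 on right spots, and 0.51 to 0.61 without single arrays. In these cases the cause was not tested.

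Probes called in CnA against TAC numbered 4319 to 11789 without single arrays, highest without WT replicate 1 and lowest without TAC replicate 2; leaving out TAC replicate 1 or 3 or CnA replicate 1 (4565, 4777 and 4729) also moved the count of 7701 by over 1.5 times. They were 15086 with array weights, 12223 with only these groups fitted, 2898 with row and slide as a block, and 27648 and 18726 with arrays scaled to *Tbp* and to the mean of the 3 genes. In CnA against WT the row and slide block left 8359, and in TAC against WT scaling to *Tbp* gave 40685. 

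Replicate numbers gave no pairing, with correlations of -0.22 to -0.02 between deviations of same-numbered arrays. The replicate block gave -1.59 for *Tbp* in TAC relative to WT (limma, adjusted p = 0.000499) and 0.70 in CnA relative to TAC (limma, adjusted p = 0.0434), and changed no call of the 3 genes. The scaling to the 12 other probes, the unscaled fit, the left and right spots and the row and slide block were chosen after seeing the data. *Tbp* in TAC was 6.42 to 6.96 times the local background.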
